A study of Mus musculus with 20 samples.

Results

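The miR-17-92 cluster is a group of 6 microRNA hairpins on mouse chromosome 14, described here with its host transcript Mir17hg in sorted mouse embryonic stem cells. The members were chosen by hairpin name in the small RNA table (mmu-mir-17, mmu-mir-18a, mmu-mir-19a, mmu-mir-20a, mmu-mir-19b-1 and mmu-mir-92a-1). Of the 6 names, 5 were found among the 605 named mouse hairpins of that table, and mmu-mir-19a was not analysed here. Whether a row without a name in that table (165 rows, not used) holds mir-19a was not settled. Mir17hg was found in the RNA-seq table, among 29692 genes, and also as a row of the small RNA table.

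MicroRNAs are cut from hairpins in a longer transcript and then guide Argonaute proteins to messenger RNAs, mainly by pairing through the seed near their 5′ end. The miR-17-92 cluster is transcribed as a single primary transcript, is switched on by Myc and E2F factors, and is known as an oncogene (oncomiR-1) that favours proliferation and survival. Mammals carry paralogous copies, miR-106a-363 on the X chromosome and miR-106b-25 in an intron of Mcm7, and pluripotent cells also express many microRNAs with related seeds.

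The cells were mouse embryonic stem cells, grown in 10% fetal bovine serum with leukemia inhibitory factor (LIF). Flow cytometry separated State 1 (Nanog high, Sox2 high), State 2 (Nanog low, Sox2 high) and State 3 (Nanog low, Sox2 low), and the total population was the fourth group. There were 8 small RNA-seq libraries (2 per group) and 12 RNA-seq libraries (3 per group). The labels letter the RNA-seq replicates A, B and C and the small RNA replicates D and E. No small RNA library is thus paired by label with an RNA-seq library. Each table holds a single normalized value per feature and group, so no spread between libraries can be given and no test over libraries was possible. The labels name neither the cell line nor how Nanog and Sox2 were detected for the sort, nor whether libraries of a group were grown as separate cultures, so the posteriors used below may measure technical spread only.

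In place of a test, the probability that 2 groups differ was taken from the authors' deposited posterior probabilities for 15 patterns of equal and unequal groups, summed over the patterns that set the 2 groups apart. A difference was called, and is written below as a rise or a fall, where this posterior sum reached 0.95. Log2 ratios are of the value plus 1. The column totals of the small RNA table were 5.13 M value units in State 1, 3.43 M in State 2, 2.61 M in State 3 and 4.15 M in the total population, of which hairpins made up 65.0%, 58.4%, 38.7% and 60.9%. From the worth of 1 read, estimated from the lowest values of each column, about 10.1, 8.06, 7.56 and 5.90 M small RNA reads stood behind these columns. The corresponding RNA-seq estimates were 54.6, 56.6, 46.8 and 51.3 M reads.

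The mature sequences are shown because the seed largely sets which messenger RNAs a microRNA can pair with, and the 6 hairpins carry only 4 different seeds. Sequences are from RefSeq (GRCm38.p6), 5′ to 3′, with the seed (bases 2 to 8) in capitals. All lie on the plus strand of chromosome 14.
mmu-miR-17-5p: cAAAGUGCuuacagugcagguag
mmu-miR-20a-5p: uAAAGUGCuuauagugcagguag
mmu-miR-18a-5p: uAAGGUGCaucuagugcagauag
mmu-miR-19a-3p: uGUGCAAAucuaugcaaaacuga
mmu-miR-19b-3p: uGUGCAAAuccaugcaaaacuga
mmu-miR-92a-3p: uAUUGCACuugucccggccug
The first 2 share the seed AAAGUGC and differ at C1U and C12U, counted from base 1 at the 5′ end with the base of miR-17-5p first. The miR-19 sequences share GUGCAAA and differ only at U11C, with the base of miR-19a-3p first. The seed of miR-18a-5p differs from that of miR-17-5p at A4G. Among 1674 mouse mature sequences in the RefSeq table, 7 (0.418%) carried AAAGUGC, 2 carried AAGGUGC, 2 carried GUGCAAA and 6 (0.358%) carried AUUGCAC.

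The 6 hairpins span 836 bases, from the start of mir-17 (chr14:115043671-115043754) to the end of mir-92a-1 (chr14:115044427-115044506). In between lie mir-18a (chr14:115043851-115043946), mir-19a (chr14:115044000-115044081), mir-20a (chr14:115044157-115044263) and mir-19b-1 (chr14:115044305-115044391). The gaps between neighbours are 96, 53, 75, 41 and 35 bases from mir-17 to mir-92a-1. The RefSeq model of Mir17hg (chr14:115044390-115046728) begins 719 bases after the start of mir-17. Of the 6 hairpins, 4 lie wholly before that model and mir-92a-1 lies wholly inside it, so the model does not cover the whole primary transcript.

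**Figure D1:**
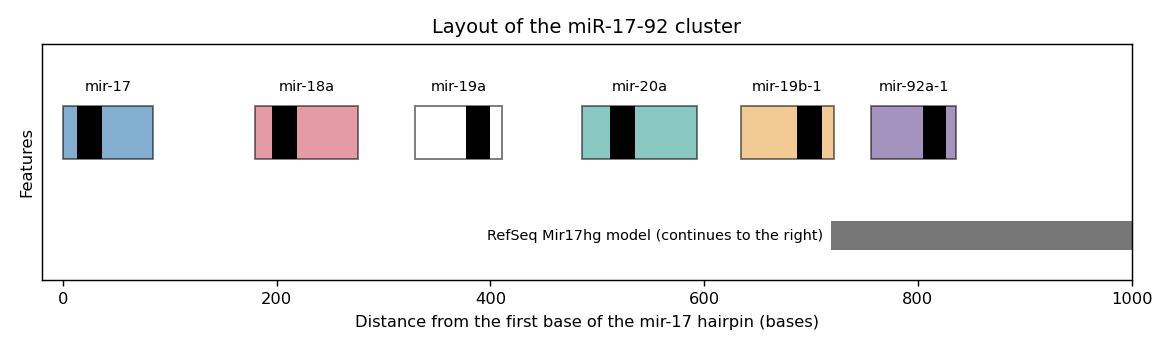
Layout of the miR-17-92 cluster in GRCm38.p6, with the distance from the first base of the mir-17 hairpin in bases on the horizontal axis. Boxes are hairpins (white: mir-19a, not analysed here), black blocks are the mature sequences printed in the text, and the grey bar is the start of the RefSeq Mir17hg model, 719 bases from the start of mir-17.

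The hairpins of the cluster differed in level by more than 3 orders of magnitude, although they are cut from the same transcript. mir-92a-1 had values of 390039.7 in State 1, 287575 in State 2, 198659.9 in State 3 and 276554 in the total population. It was the second most abundant of the 605 hairpins in each of the 4 groups. It alone made up 97.9%, 98.2%, 97.7% and 97.6% of the summed value of the 5 measured hairpins. mir-20a came next with 6116, 3733, 3213 and 4955 (rank 24 to 31 among hairpins), then mir-17 with 1838, 1106, 1132 and 1547 (rank 49 to 66), in the same group order. mir-18a had values of 267 in State 1, 173 in State 2, 163 in State 3 and 267 in the total population (rank 118 to 138). The lowest was mir-19b-1, with 184, 113, 119 and 163 (rank 135 to 162). The same order of the 5 hairpins was seen in every group, and State 1 had the highest value for each of them.

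**Figure D2:**
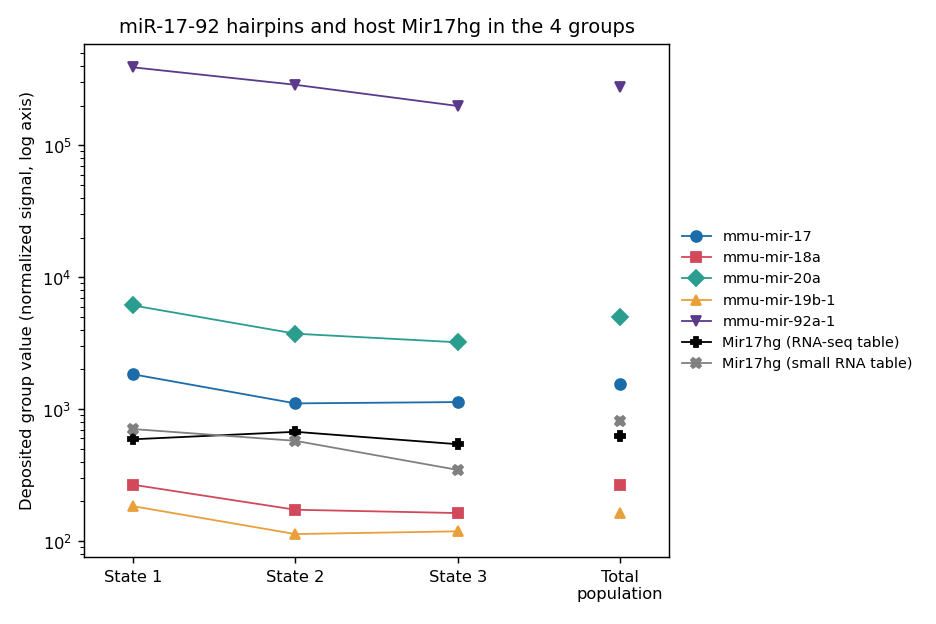
Deposited value (normalized signal, log axis) of each measured miR-17-92 hairpin and of Mir17hg in the 2 tables, in State 1, State 2, State 3 and the total population. mir-92a-1 lies between 198659.9 and 390039.7, the other 4 hairpins between 113 and 6116, and lines join the sorted states for reading only.

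As deposited, the summed cluster had a value of 398445 in State 1, 292700.2 in State 2, 203286 in State 3 and 283486 in the total population. State 1 was the highest group and State 3 the lowest, and the total population lay close to State 2. Because mir-92a-1 makes up nearly all of this sum, the other 4 hairpins were also summed alone. They gave 8406 in State 1, 5125 in State 2, 4627 in State 3 and 6932 in the total population, with State 2 and State 3 close to each other and the total population between them and State 1.

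mir-18a was the only one of the 5 measured hairpins with a called difference. It fell in State 2 against State 1 (log2 -0.63, posterior sum 0.9999) and in State 3 against State 1 (log2 -0.71, posterior sum 0.99998), and it was lower by calls of the same kind in State 2 and State 3 than in the total population (log2 -0.63 and -0.71). Between State 3 and State 2 it was not called (log2 -0.08, posterior sum 0.0149), and State 1 and the total population had nearly equal values. Its values rest on about 486 to 569 reads in State 1, 345 to 467 in State 2, 418 to 526 in State 3 and 361 to 398 in the total population. Counting error alone gives its log2 ratio a 95% half-width of 0.20 when State 2 is set against State 1, and of 0.19 when State 3 is. The called falls of mir-18a did not keep their direction when the columns were rescaled: the log2 ratio of State 3 to State 1 became 0.26 on equal column totals, 0.43 by the median ratio of hairpins and 1.01 on equal hairpin totals, while that of State 2 to State 1 was -0.05, -0.13 and 0.11.

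The other 4 hairpins had log2 ratios of similar size without a call. In State 2 relative to State 1 these were -0.73 for mir-17 (posterior sum 0.0419), -0.71 for mir-20a (0.000704), -0.70 for mir-19b-1 (0.0176) and -0.44 for mir-92a-1 (0.000183). In State 3 relative to State 1 they were -0.70 for mir-17 (posterior sum 0.0430), -0.93 for mir-20a (0.000989), -0.63 for mir-19b-1 (0.0219) and -0.97 for mir-92a-1 (0.00118). For mir-20a and mir-92a-1, the most abundant members, the authors' model thus gave nearly all of its weight to no difference, although their State 3 to State 1 ratios lay further from 0 than that of the called mir-18a. Between State 3 and State 2 the log2 ratios were 0.03 for mir-17, 0.07 for mir-19b-1, -0.22 for mir-20a and -0.53 for mir-92a-1, with posterior sums of 0.00995 or less. A posterior sum under 0.95 does not show that the levels were equal, and the spread between libraries behind it cannot be seen in a table of group values.

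The calls in the cluster were read against those of all hairpins. Of the 605 hairpins, 12.1% were called in State 2 against State 1 (9.59% lower), beside 1 of the 5 members. Between State 3 and State 2, 15.7% were called (15% lower) and none of the 5 members was. In State 3 against State 1, 25.3% were called (22.5% lower), beside 1 of 5 members. All 5 members belong to the 164 hairpins with a mean of at least 100, where calls were more common: 34.8%, 43.9% and 67.1% for the same 3 comparisons. Against the total population, 23.2% of these abundant hairpins were called for State 2 and 61% for State 3, each beside 1 of the 5 members, and 6.71% were called for State 1 beside none of the members. Among abundant hairpins outside the cluster whose log2 ratios lay inside the range of the members, 2 of 33 were called between State 2 and State 1. The counts were 0 of 44 between State 3 and State 2 and 7 of 18 (38.9%) between State 3 and State 1.

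The deposited small RNA values shift downward as a whole from State 1 to State 3, so the ratios of the cluster were also set beside the median of other hairpins. Over all 605 hairpins the median log2 ratio of State 2 to State 1 was -0.37, that of State 3 to State 2 -0.46 and that of State 3 to State 1 -0.59. The medians of the 5 members were -0.70, -0.08 and -0.71, which differed from these by -0.33, 0.38 and -0.11. Among the 164 abundant hairpins the medians were -0.63, -0.76 and -1.31. For State 3 against State 1 the members therefore lay below the median of all hairpins but above that of abundant hairpins, so the side on which they fell depended on the hairpins they were set beside. In the ratio of State 3 to State 1, between 100 and 122 of the 164 abundant hairpins had a lower ratio than a given member, the most for mir-19b-1 (122) and mir-17 (120). In the ratio of State 3 to State 2 the members lay further up, above 103 (mir-92a-1) to 151 (mir-19b-1) of the 164. In that of State 2 to State 1 they lay near the middle, above 66 (mir-17) to 103 (mir-92a-1). These positions are a description of the tables, and no test stands behind them.

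The direction of change of the cluster depended on how the columns were scaled. As deposited, the log2 ratio of the summed cluster in State 3 to State 1 was -0.97. On equal column totals it was 0.0031, by the median ratio of hairpins 0.18, and on equal hairpin totals 0.75. In shares, the summed cluster made up 7.77% of all small RNA value in State 1, 8.54% in State 2, 7.79% in State 3 and 6.83% in the total population. Of the hairpin value it made up 11.9%, 14.6%, 20.1% and 11.2% in the same order. All 5 members had a log2 ratio of State 3 to State 1 between -0.97 and -0.63 as deposited, between 0.00 and 0.34 on equal column totals, between 0.17 and 0.51 by the median ratio and between 0.75 and 1.09 on equal hairpin totals. The sources used here do not give the authors' scaling of the libraries, and the posteriors cannot be recomputed for another scaling. The hairpin total itself moved with the embryonic stem cell hairpins: mir-290a, mir-291a, mir-292a, mir-294 and mir-295 summed to 1930622 in State 1, 1072225 in State 2, 448918 in State 3 and 1462493 in the total population. Nearly all of each sum was mir-292a, with 1855076, 1035591.5, 430145 and 1384684 in the same order. All 5 hairpins have a mean of at least 100 and were called lower in State 3 than in State 1. Beside them, 22.5% of the 605 hairpins were called lower, and 67.1% of the 164 abundant hairpins were called in either direction. On equal hairpin totals the log2 ratios of these 5 hairpins for State 3 to State 1 lay between -0.38 and -0.15. Their part in the ratios of miR-17-92 on hairpin totals was not tested.

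**Figure D3:**
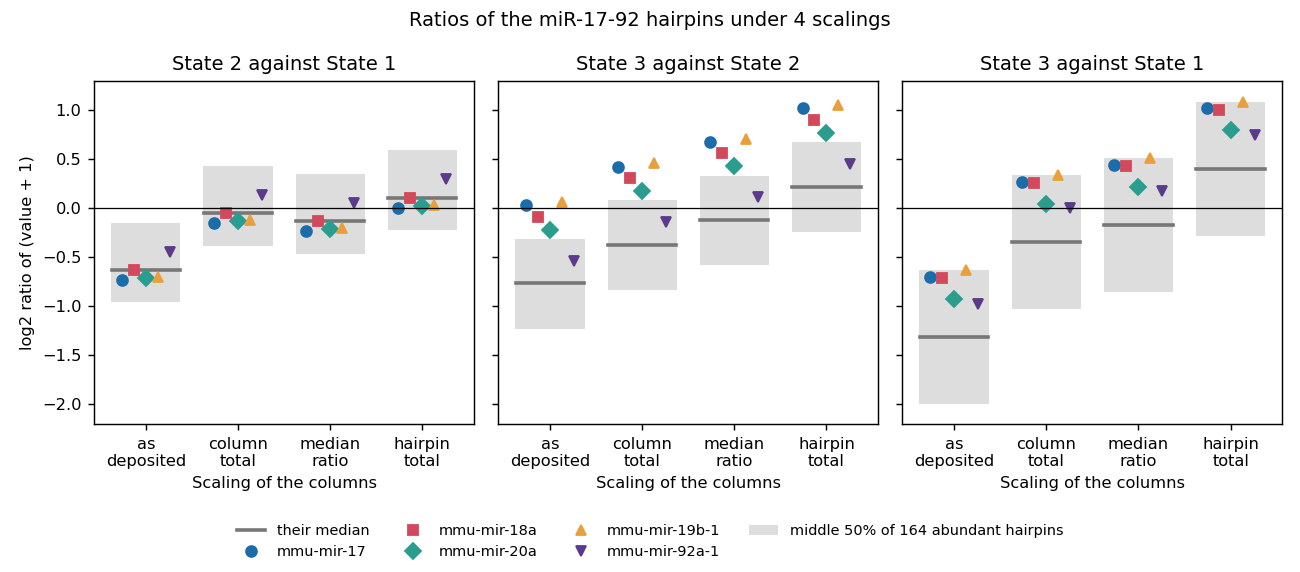
Log2 ratio of the value plus 1 for each measured miR-17-92 hairpin in 3 comparisons, with the columns as deposited or scaled to equal column totals, by the median ratio of hairpins, or to equal hairpin totals. Grey bars are the middle 50% of 164 abundant hairpins and grey lines their median. For State 3 against State 1 the members move from -0.97 to -0.63 as deposited to 0.75 to 1.09 on equal hairpin totals.

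Ratios between hairpins of a group do not depend on the scaling. mir-20a was 3.33 times as high as mir-17 in State 1, 3.37 times in State 2, 2.84 times in State 3 and 3.20 times in the total population. mir-17 was 6.87, 6.40, 6.94 and 5.79 times as high as mir-18a in the same groups. mir-17 and mir-19b-1 ran closest together over the 4 groups, with a distance of 0.059 between their centred log2 profiles, and mir-18a and mir-92a-1 lay farthest apart, with 0.517. Counting error alone gives log2 ratios between groups a 95% half-width of 0.22 to 0.27 for mir-19b-1 and 0.19 to 0.21 for mir-18a. The order of the smaller distances is therefore not settled. mir-92a-1 stood apart from the other members in its order of groups, since its value in the total population (276554) was below that in State 2 (287575), whereas the other 4 hairpins were higher in the total population than in State 2. The values are not per length, and the ligation of adapters in small RNA libraries is known to favour some sequences, so levels compared between different hairpins carry that limit.

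For mir-92a-1 and mir-19b-1 the hairpin of origin is uncertain, because mir-92a-2 and mir-19b-2 of the miR-106a-363 cluster on the X chromosome hold the same mature sequence. The hairpins are shown with the shared mature sequence in capitals and the rest, by which a read could be told apart, in lower case. The X-chromosome hairpins lie on the minus strand, at chrX:52741838-52741928 for mir-92a-2 and chrX:52741983-52742066 for mir-19b-2.
mmu-mir-92a-1: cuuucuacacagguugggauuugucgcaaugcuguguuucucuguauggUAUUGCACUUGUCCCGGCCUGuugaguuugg
mmu-mir-92a-2: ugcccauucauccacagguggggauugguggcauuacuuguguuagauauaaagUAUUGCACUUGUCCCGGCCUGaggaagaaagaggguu
mmu-mir-19b-1: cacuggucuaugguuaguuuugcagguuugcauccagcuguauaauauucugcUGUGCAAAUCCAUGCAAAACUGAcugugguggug
mmu-mir-19b-2: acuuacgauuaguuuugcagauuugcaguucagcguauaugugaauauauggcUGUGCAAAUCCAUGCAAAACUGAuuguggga
The 19b pair had nearly equal values, with mir-19b-1 at 1.05, 1.01, 0.963 and 1.02 times mir-19b-2 (State 1, State 2, State 3, total population). The 92a pair did not, as mir-92a-1 was 8.86, 5.11, 6.18 and 7.43 times as high as mir-92a-2, whose values were 44004, 56257, 32130.5 and 37237. The sources used here do not say how reads shared by both hairpins were divided. With mir-19b-2 and mir-92a-2 added to the sum, the log2 ratio of State 3 to State 1 was -0.91 and mir-92a-1 held 82.4% to 88.1% of the total.

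The other hairpins with the same seeds lie mostly in the paralogous clusters. Those of the paralogous clusters that differ from the members in sequence are shown to mark what they share with them, again with bases 2 to 8 in capitals.
mmu-miR-106b-5p: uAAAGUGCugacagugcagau
mmu-miR-93-5p: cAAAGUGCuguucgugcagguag
mmu-miR-20b-5p: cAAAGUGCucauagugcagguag
mmu-miR-106a-5p: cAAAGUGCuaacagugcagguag
mmu-miR-18b-5p: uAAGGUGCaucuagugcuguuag
mmu-miR-25-3p: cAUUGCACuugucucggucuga
mmu-miR-363-3p: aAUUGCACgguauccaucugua
miR-106a-5p differs from miR-17-5p only at U10A, and miR-18b-5p differs from miR-18a-5p at A18U and A20U, in each case with the base of the miR-17-92 member first.

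Within the 6 measured hairpins of the miR-17 seed, mir-17 and mir-20a together made up 34.2% of the value in State 1, 32.7% in State 2, 41.0% in State 3 and 32.9% in the total population. The miR-106b-25 hairpins mir-106b and mir-93 held 53.4%, 45.4%, 41.9% and 53.6%. miR-17-92 held its highest share in State 3, where the 2 shares were nearly equal. mir-18a held 35.0%, 22.3%, 26.2% and 33.0% of the miR-18 seed, the rest being mir-18b. mir-19b-1 held 49.1% to 51.3% of the miR-19 seed, with mir-19a not included, which could lower this share. mir-92a-1 held 77.5%, 73.9%, 78.4% and 74.9% of the miR-92 seed, ahead of mir-92a-2, mir-25 and mir-363 in every group. These shares do not depend on the scaling of the columns, and they have no spread between libraries. For the miR-19 and miR-92 seeds they do depend on how reads shared with mir-19b-2 and mir-92a-2 were divided, which is not known.

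**Figure D4:**
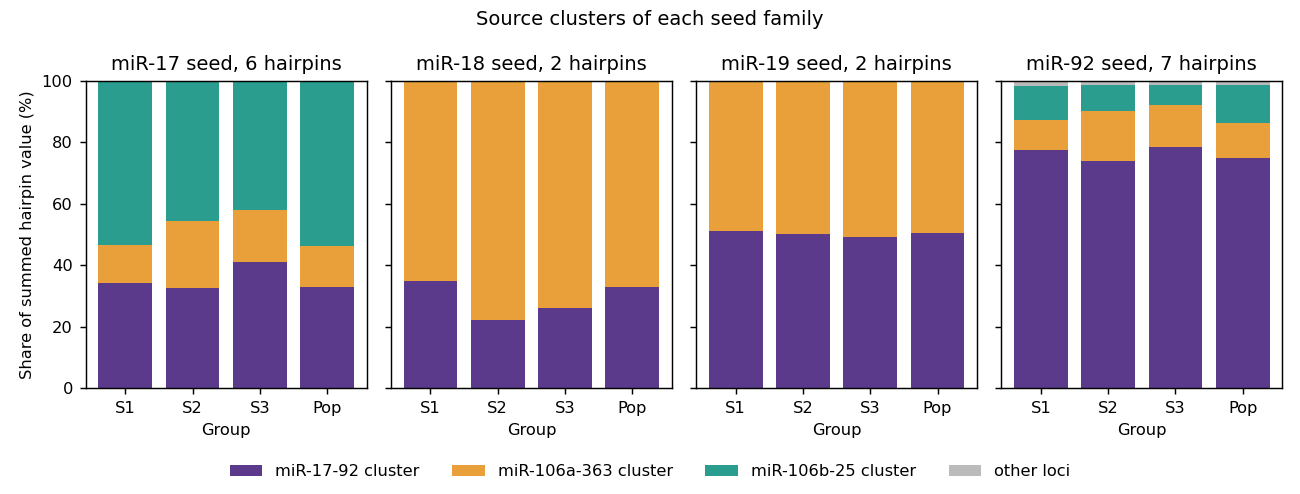
Share of the summed hairpin value (percent) that each cluster held within 4 seed families, in State 1 (S1), State 2 (S2), State 3 (S3) and the total population (Pop). miR-17-92 held 32.7% to 41.0% of the miR-17 seed, 22.3% to 35.0% of the miR-18 seed, 49.1% to 51.3% of the miR-19 seed and 73.9% to 78.4% of the miR-92 seed. The miR-19 share is that of mir-19b-1 alone. Reads of mir-19a, the other member with this seed, are not included and could raise the share of the cluster. The miR-19 and miR-92 shares depend on an unknown division of reads shared by hairpins with the same mature sequence.

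Of the 3 miR-106b-25 hairpins, 2 fell in State 2 against State 1 (mir-106b and mir-93) and 2 in State 3 against State 2 (mir-106b and mir-25), beside 34.8% and 43.9% of abundant hairpins called in either direction. The State 2 to State 1 ratios stayed below 0 under the 3 other scalings, between -0.33 and -0.09 for mir-106b and between -0.65 and -0.42 for mir-93. In State 3 against State 2 the fall of mir-106b (log2 -0.61 as deposited) turned to 0.04 by the median ratio and 0.38 on equal hairpin totals, while that of mir-25 (-1.07 as deposited) lay between -0.68 and -0.08 under the 3 other scalings. All 3 fell in State 3 against State 1 as deposited, beside 1 of the 5 miR-17-92 members and 67.1% of abundant hairpins, with a median log2 ratio of -1.71, which was -0.74 on equal column totals, -0.56 by the median ratio and 0.01 on equal hairpin totals. mir-25 had values of 56360.4 in State 1, 33794 in State 2, 16115 in State 3 and 45779 in the total population, and its fall from State 1 to State 3 was log2 -1.81 as deposited and -0.08 on equal hairpin totals. mir-106b had values of 10170.2, 5720.4, 3755 and 8883, and mir-93 of 2246, 1009, 685 and 1695. For mir-93 the deposited log2 ratio of State 3 to State 1 was -1.71, and for mir-106b it was -1.44, which turned to 0.29 on equal hairpin totals. The difference between the clusters was not tested, since no spread between libraries is at hand.

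In the miR-106a-363 cluster 1 of the 6 hairpins was called in State 3 against State 1, beside 67.1% of abundant hairpins. mir-363 had values of 5761 in State 1, 6631 in State 2, 2806 in State 3 and 5324 in the total population, and it fell in State 3 against State 2 (log2 -1.24 as deposited, between -0.85 and -0.25 under the 3 other scalings). Its fall in State 3 against State 1 (log2 -1.04 as deposited) turned to 0.11 by the median ratio and 0.69 on equal hairpin totals. None of the 6 was called in State 2 against State 1, beside 34.8% of abundant hairpins. As deposited, the median log2 ratio of State 2 to State 1 over the 6 hairpins was 0.21, with 5 of 6 above 0, whereas all 5 measured miR-17-92 hairpins lay below 0. On equal hairpin totals the medians were 0.95 and 0.03 and all 5 miR-17-92 hairpins lay above 0. On equal column totals and by the median ratio mir-92a-1 alone of the 5 was above 0 (0.14 and 0.06). Other values of this cluster, in the order State 1, State 2, State 3 and total population, were 2124, 2379, 1198 and 2026 for mir-20b, 739, 865, 606 and 646 for mir-106a, 496, 604, 459.5 and 543 for mir-18b, and 175, 112, 123 and 159 for mir-19b-2.

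The host transcript did not show the order that the hairpins had as deposited. Mir17hg (ENSMUSG00000089726.2), the long noncoding transcript from which the cluster is cut, had RNA-seq values of 591 in State 1, 674 in State 2, 542 in State 3 and 625 in the total population. State 2 was the highest and State 3 the lowest group. The summed cluster, highest in State 1 as deposited, was also highest in State 2 on equal column totals, and it was highest in State 3 by the median ratio and on equal hairpin totals, so its order beside the host depended on the scaling. The log2 ratio of the host in State 2 to State 1 was 0.19 (posterior sum 0.0220), that of State 3 to State 2 -0.31 (0.0888) and that of State 3 to State 1 -0.12 (0.0956), and none was called. Among RNA-seq genes with a mean of at least 10, 25.6%, 16.3% and 38.1% were called in these 3 comparisons. The RNA-seq columns had almost equal totals (16.9 to 17.7 M), and rescaling to equal totals left the ratios at 0.26, -0.34 and -0.09. In State 2 relative to State 1 the host therefore had a ratio above 0 while all 5 hairpins lay between -0.73 and -0.44 as deposited, between -0.15 and 0.14 on equal column totals and between -0.23 and 0.06 by the median ratio. On equal hairpin totals the 5 hairpins lay between 0.0042 and 0.30, on the same side of 0 as the host. Only mir-92a-1 lies wholly inside the RefSeq model of the host, and the sources used here do not say which exons the authors counted. Host and hairpins were measured in libraries with different replicate letters. A difference between preparations therefore cannot be told apart from one between host and hairpins.

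In the small RNA table the row named Mir17hg had values of 707 in State 1, 576 in State 2, 346 in State 3 and 811 in the total population. State 3 was the lowest group. The sources used here do not say how its reads were told apart from those of the hairpins. Its posterior sums were 0.942 for State 3 against State 1 (log2 -1.03) and 0.943 for State 3 against the total population (log2 -1.22), just under the limit of 0.95, and would have passed a limit of 0.90. The log2 ratio of State 3 to State 1 was -0.06 on equal column totals, 0.12 by the median ratio and 0.69 on equal hairpin totals. That of State 3 to the total population was -0.56, -0.34 and 0.10 in the same order.

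By the distance between log2 profiles over the 4 groups, each centred on its mean, the hairpins nearest to the summed cluster among 159 with a mean of at least 100 were mir-340 (distance 0.196), mir-24-1 (0.204) and mir-24-2 (0.233). mir-340 had values of 298 in State 1, 209 in State 2, 144 in State 3 and 238 in the total population. For the host, the nearest of 10735 genes with a mean of at least 50 were Fgfr1op (0.010), Rps10-ps2 (0.017) and Aqr (0.023). Fgfr1op, a centrosomal protein gene, had values of 685, 784, 633 and 723 in the same order, and it fell in State 3 against State 2 with a posterior sum of 0.997 at a log2 ratio of -0.31. With 4 points a profile, such likeness is a description only.

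Of the 8 listed regulators, the factors that switch the cluster on were measured next. Myc, a direct activator of the cluster, had values of 1441 in State 1, 1619 in State 2, 2177 in State 3 and 1774 in the total population, highest in State 3, but was not called (log2 0.60 for State 3 against State 1, posterior sum 0.0547). Mycn, its paralog in embryonic cells, had values of 2764, 3818, 2133 and 3133 and followed another order: it rose in State 2 against State 1 (log2 0.47) and fell in State 3 against State 2 (log2 -0.84) and against State 1 (log2 -0.37). The 4 groups stood in the same order for Mycn as for the host, with State 2 highest and State 3 lowest, which is a description of 4 values. This order was not particular to Mycn, since the listed regulator Hnrnpa1, which was not called, had it as well.

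The E2F genes, which encode cell cycle transcription factors and are both activators and published targets of the cluster, were split. E2f2 had values of 590.4 in State 1, 170 in State 2, 165 in State 3 and 426 in the total population, and fell in State 2 and State 3 against State 1 (log2 -1.79 and -1.83). E2f1 had values of 573, 384, 335 and 470.3 and fell in the same comparisons (log2 -0.58 and -0.77). E2f3 was not called, with 1175, 1097, 1119 and 1149.

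Proteins that act on the precursors were not called either. Hnrnpa1, which binds the mir-18a hairpin and helps its processing, had values of 18179, 18750.4, 18121 and 18509. Khsrp, a processing factor that binds terminal loops, had 6546, 6311, 5933 and 6413. Lin28a, best known as the let-7 precursor inhibitor, had 6300.1 in State 1, 8599 in State 2, 8968 in State 3 and 7447 in the total population, with a posterior sum of 0.777 for State 3 against State 1. In all, 3 of the 8 regulators fell and none rose in State 3 against State 1, beside 17.3% of genes with a mean of at least 10 called lower and 20.8% called higher. Between State 2 and State 1, 1 rose and 2 fell, beside 13.4% and 12.2% of those genes. Between State 3 and State 2, 1 fell, beside 6.19%.

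Published targets of the cluster, taken as a list of 25 genes, were called in both directions. In State 3 against State 1, 14 rose, 6 fell and 5 were not called. In State 2 against State 1, 9 rose, 5 fell and 11 were not called, and in State 3 against State 2, 9 rose, 2 fell and 14 were not called. Isl1 and Tbx1 had a mean under 10, so the other 23 were set beside the genes with a mean of at least 10. Of these 23, 13 rose and 6 fell in State 3 against State 1, where 20.8% of genes were called higher and 17.3% lower, and their median log2 ratio was 0.30 against -0.02 over those genes. In State 2 against State 1, 8 rose and 5 fell (13.4% and 12.2% of genes), with a median of 0.11 against -0.01. In State 3 against State 2, 9 rose and 2 fell (10.1% and 6.19% of genes), with a median of 0.18 against -0.01. E2f1, E2f2 and E2f3 stand in both lists. The list was written from general knowledge of the cluster, but with earlier results of these data known. Its counts are therefore a description and no independent support, and the genes beside it were not matched for level. Repression by a microRNA was not measured.

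Among brakes on survival and growth signalling, 5 of 6 rose in State 3 against State 1 and none fell. Over genes with a mean of at least 10, 20.8% were called higher and 17.3% lower. These shares are the background of the other role counts below as well. The roles are small parts of a list chosen with earlier results known, and none was tested as a set. Bcl2l11, which encodes the pro-apoptotic protein Bim, had values of 838 in State 1, 1623 in State 2, 1752 in State 3 and 1017 in the total population, and rose in both comparisons with State 1 (log2 0.95 and 1.06). Tnfaip3, an inhibitor of NF-kappaB signalling, had 31.6, 79.0, 154 and 44.1 and rose in State 3 against State 1 (log2 2.25), while for State 2 against State 1 its posterior sum was 0.936.

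Of the 6 cell cycle targets, 1 rose and 3 fell in State 3 against State 1. None was called in State 3 against State 2, beside 16.3% of genes with a mean of at least 10. Cdkn1a, the p21 inhibitor of cyclin-dependent kinases, had values of 247 in State 1, 455 in State 2, 693 in State 3 and 281 in the total population, and rose in State 2 and State 3 against State 1 (log2 0.88 and 1.48). The falls were those of E2f1, E2f2 and Rbl2. Ccnd1, cyclin D1, was not called, with 3205, 3463, 3928 and 3091.

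The TGF-beta and BMP receptors and signal carrier on the list (3 genes) all rose in State 3 against State 1 and against State 2. Of genes with a mean of at least 10, 20.8% and 10.1% were called higher in these comparisons. Tgfbr2, the type II TGF-beta receptor, had values of 18.4 in State 1, 48.6 in State 2, 120 in State 3 and 27.6 in the total population, a log2 ratio of 2.65 for State 3 against State 1. The matrix and adhesion targets also rose, 3 of 3 in State 3 against State 1. Thbs1, which encodes the angiogenesis inhibitor thrombospondin 1, had 46.6, 819, 3678 and 437 and a log2 ratio of 6.27, and Ctgf, a matricellular growth factor, had 351, 1069.8, 1648 and 585 and a log2 ratio of 2.23.

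The remaining 7 targets were mixed, with 2 higher, 3 lower and 2 not called in State 3 against State 1. Tbx3, which encodes a T-box factor that supports naive pluripotency, had values of 2549.5 in State 1, 372 in State 2, 219 in State 3 and 1545 in the total population and fell by a log2 ratio of -3.54. Kat2b, a histone acetyltransferase, had 1125, 571, 316 and 959 and fell by -1.83. Isl1, a LIM homeodomain factor of heart progenitors, had 0.33, 6.4, 24.8 and 1.72 and was called higher in State 3 than in State 1. The State 1 value of Isl1 is about 1 read, so the ratio of 75.1 has an exact 95% counting interval from 13.2 to 3057. Mapk14, a stress-activated MAP kinase, was not called, with 1989.8 in State 1, 1938 in State 2, 2081 in State 3 and 1926 in the total population.

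**Figure D5:**
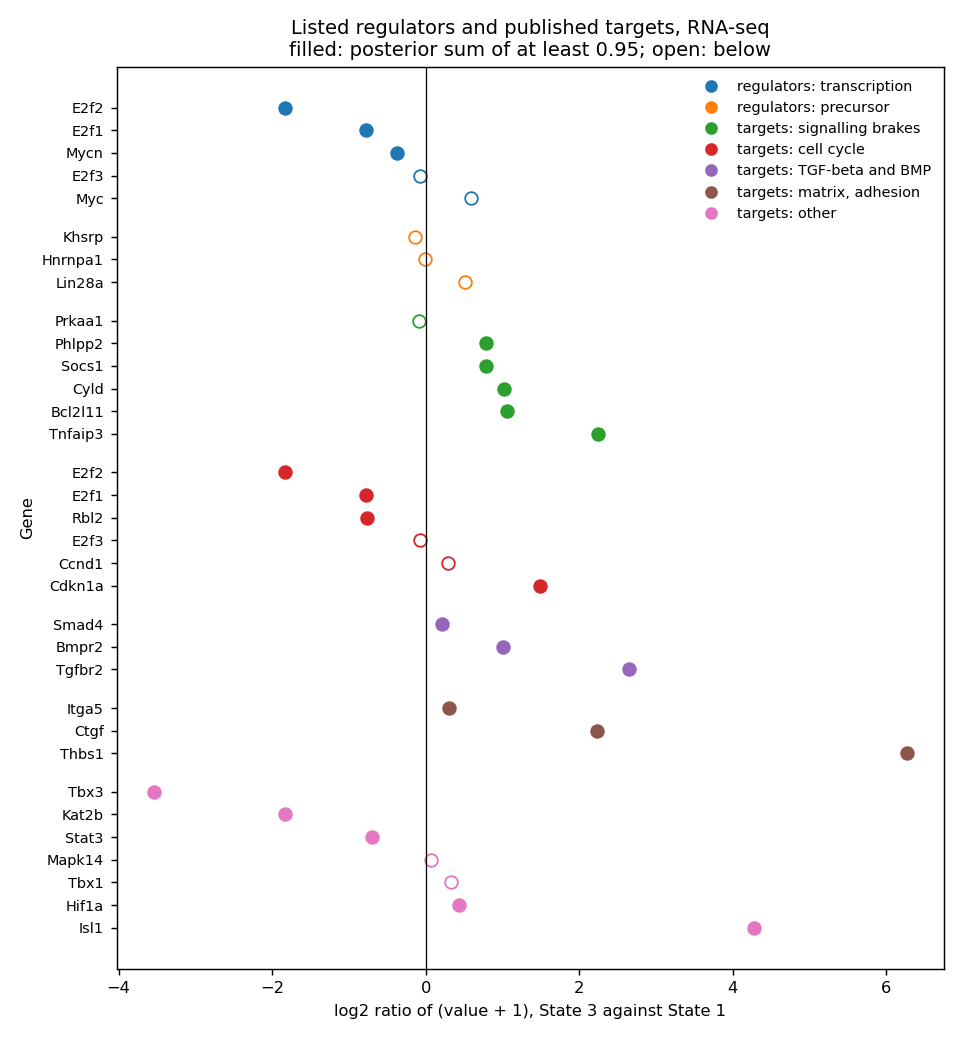
Log2 ratio of the value plus 1 in State 3 against State 1 in RNA-seq for the listed regulators and published targets, grouped by role. Filled points have a posterior sum of at least 0.95 and open points do not; E2f1, E2f2 and E2f3 appear in both lists, and points run from -3.54 (Tbx3) to 6.27 (Thbs1).

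Levels of cell type markers differed between the groups as well. The shares called over genes with a mean of at least 10, given above for State 3 against State 1 (20.8% higher, 17.3% lower), are the background of the marker counts. Embryonic stem cell markers (Pou5f1, Nanog, Sox2, Esrrb, Zfp42, Klf4, Dppa5a and Tdgf1) summed to 55751 in State 1, 33394 in State 2, 23752 in State 3 and 46963 in the total population, and 6 of 8 fell in State 3 against State 1. Nanog and Sox2, which defined the sort, are among them. Fibroblast markers summed to 72.1, 189, 1153 and 187, with 3 of 7 (Col1a1, Col1a2 and Col3a1) called higher in State 3 than in State 1, while Dcn was at 0 in State 1 and 12.4 in State 3 and Lum at 1.46 or less. Col1a1 alone held 827 of the State 3 sum. Dcn, Lum, Thy1 (42.2 in State 1, 59.3 in State 3) and Prrx1 (0.97 and 2.97) were not called. Primitive endoderm markers summed to 58.4, 214, 498 and 111, with 4 of 5 called higher in State 3 than in State 1. Blood markers summed to 103, 137, 133 and 100.4, nearly all from Coro1a, with Ptprc called higher in State 3 (9.84) than in State 1 (0.33). Of the 3 hairpins listed for differentiated cells, 2 fell in State 3 against State 1 and none was called higher. mir-143 had values of 493 in State 1, 223 in State 2, 105 in State 3 and 369 in the total population, and mir-145a had 29.3, 17.8, 6.61 and 29.4. Both fell in State 3 against State 1 (log2 -2.22 and -1.99), beside 22.5% of the 605 hairpins called lower, and stayed below 0 under the 3 other scalings, up to -0.50 and -0.40. Of the abundant hairpins, to which mir-143 belongs, 67.1% were called in that comparison in either direction. mir-21a had 14545, 37008, 40047 and 24998 and was not called (posterior sum 0.0333 for State 3 against State 1). Its log2 ratio of State 3 to State 1 was 1.46 as deposited and lay between 2.44 and 3.19 under the 3 other scalings. The blood hairpins mir-451a and mir-142a were at 5.33 or less and not called between states. In bulk libraries fewer cells of a type and less RNA per cell cannot be told apart, and the part of other cell types in the hairpin, host and target ratios was not tested.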

How the data were processed

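Small RNA-seq (adapter ligation) and rRNA-depleted, dUTP-marked RNA-seq were made from sorted mouse embryonic stem cells, per the labels' protocols. The tools listed in the submitters' processing notes are STAR 2.4.1d and RSEM 1.2.30, with the builds mm10 and GRCm38, but not their roles. In both tables the authors deposited a normalized signal per feature and group, with libraries already combined, and, per the file headers, a posterior score for each of 15 EBSeq-type patterns and for any difference. The sources used here do not give the scaling. The deposited RNA-seq ratios between states were not used, because they hold spreadsheet errors.

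The patterns are not spelled out and were read in the EBSeq order for State 3, State 2, State 1, total population. Among features with a single-group pattern at 0.95 or more and a mean of at least 5, the group set apart was the farthest from the others in 96.8% of 95 small RNA features and 98.9% of 532 genes, and in 84.2% and 90.4% with State 1 and the total population exchanged. Posterior sums (limit 0.95) and log2 ratios (pseudocount 1) were computed with Python 3.11.15, numpy 2.4.6 and pandas 2.3.3 and checked on simulated tables. The simulated posteriors were set in the same pattern order, so that check covers the summing and the directions only, and not the order. The depth per group is an estimate from the lowest values, and counting intervals cover counting error only. Tests on counts per library, the planned fallback, could not be applied, since each table holds 1 value per group.

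The members and the lists of regulators, targets and markers were chosen with earlier results of these data known. Named were all members, the paralogous hairpins with the same seeds, all 8 regulators, the 10 called targets with the largest State 3 to State 1 ratio, the 2 most abundant targets not called, and the 3 nearest profiles of the cluster and of the host. A further gene of the target list is not reported here and enters none of the target counts. Alternatives were other probability limits, pattern order, scalings, pseudocounts (5 and 0.1), member sets and minimum means. Features without a name (165 in the small RNA table) were not used.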

Additional observations from a re-analysis of the deposited data

How the results depend on the processing

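No paired analysis was possible because the tables hold 1 value per group; for the same reason leaving out a replicate and a replicate block were not run. Calls of the hairpins and of Mir17hg in RNA-seq, and the counts of called targets, stayed within 1.5 times at limits of 0.90 and 0.99, and the hairpin and host calls did so with State 1 and the total population exchanged. Pseudocounts of 5 and 0.1 moved no hairpin or host ratio by more than its counting error. Directions changed with the scaling. The falls of mir-18a reversed: State 2 against State 1 on equal hairpin totals (0.11), and State 3 against State 1 on equal column totals (0.26), by the median ratio (0.43) and on equal hairpin totals (1.01). The log2 ratio of the summed level was 0.14, 0.29 and 0.055 for State 2 to State 1, -0.13, 0.46 and 0.12 for State 3 to State 2, and 0.0031, 0.75 and 0.18 for State 3 to State 1, on equal column totals, on equal hairpin totals and by the median ratio. Without mir-19b-1 and mir-92a-1 it was -0.71, -0.15 and -0.87 in the same comparisons, and with mir-19b-2 and mir-92a-2 it was -0.34, -0.57 and -0.91. The members' median differed from that of all hairpins by -0.33, 0.38 and -0.11 and from that of hairpins with a mean of at least 10 by -0.17, 0.57 and 0.31, so the sign turned for State 3 against State 1. With mir-19b-2 and mir-92a-2 added, mir-92a-1 held 88.1%, 82.4%, 84.3% and 86.2% of the sum (State 1, State 2, State 3, total population), and without mir-19b-1 and mir-92a-1, mir-20a held 74.4%, 74.5%, 71.3% and 73.2%. These last shifts follow from the changed member set; the cause of the difference between scalings was not tested. Depth limits mir-19b-1 most, with about 219 to 391 reads per group.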
